A study of Mus musculus with 7 samples.

Results

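Chemokines are small secreted proteins that guide leukocytes through chemokine receptors. They are named by the spacing of their first cysteines (CC, CXC, C and CX3C), and 1 ligand often binds several receptors. In an inflamed or transplanted heart, CXCR2 ligands draw neutrophils, inflammatory CC chemokines such as Ccl3 to Ccl5 draw monocytes and T cells, and CCR4 ligands draw T helper and regulatory T cells. Type 2 innate lymphoid cells (ILC2s) are tissue lymphocytes without antigen receptors that answer to interleukin 33 through ST2, and they can secrete chemokines themselves.

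The chemokine ligand family was taken as every gene whose symbol begins with Ccl, Cxcl, Xcl or Cx3cl followed by a digit. This gave 40 of the 55335 genes of the deposited table. Of the 40, 30 had enough counts to be tested, 8 held some counts but fell below the filter, and 2, Cxcl13 and Ccl27b, had no count in any library. The design sets ILC2s sorted from rejecting grafts against ILC2s of resting hearts.

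The 7 libraries came from mouse hearts, 3 naive and 4 allograft. Allografts were Balb/C hearts placed in C57BL/6 recipients, in a model of acute rejection without a named treatment, and were taken at 7 days. The labels give no strain, age, sex or genotype for the naive hearts, although their time label also reads 7 days. In both groups the cells were sorted as CD45+, lineage-negative and ST2+, and 1 library pooled the cells of 4 to 7 hearts, so p-values measure the spread between pools. The host contributes infiltrating cells to an allograft, and donor and recipient ILC2s were not separated.

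Naive replicate 2 stood apart from the other libraries. The 13 ILC2 markers summed to 204 CPM (counts scaled to the library total) there, against 7898 and 8460 CPM in naive replicates 1 and 3 and 8069 to 8427 CPM in the allografts. A list of 6 kidney tubule markers summed to 9762 CPM in that library and to at most 244 CPM in any other. Mitochondrial transcripts made up 26.5% of its counts and 2.04% to 3.11% elsewhere. Naive replicates 1 and 3 also differed from each other, with a correlation of log2 levels of 0.684. Against the allografts, naive replicate 1 correlated at 0.799 to 0.823 and naive replicate 3 at 0.707 to 0.731. Totals ran from 29107326 to 53044907 counts, so that 3 counts, the limit that a count of 0 allows, stood for 0.0566 to 0.103 CPM. These limits cover counting error only, and amplified cDNA without molecular identifiers does not count independent molecules. Any count was found for 15820, 20254 and 13864 genes in naive replicates 1 to 3 and for 19235 to 21354 genes in the allografts.

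The family divides into genomic clusters. Coordinates are for mm10 (GRCm38), from GENCODE M21. Of the 40 genes, 12 lie on chromosome 11 and 11 on chromosome 5, among them the neighbouring neutrophil chemokine genes Cxcl3 (chr5:90786103-90789600), Cxcl1 (chr5:90891241-90893115) and Cxcl2 (chr5:90903871-90905938), all protein-coding and on the plus strand. The CCR4 ligands Ccl22 (chr8:94745590-94751699) and Ccl17 (chr8:94810453-94812036) flank Cx3cl1 on chromosome 8.

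The sequences upstream of these genes are shown because the first 3 share a motif while their fitted fold changes differed in direction, and because Ccl17 and Ccl22 were high in the same libraries. They come from RefSeq (GRCm38.p6), plus strand, read 5′ to 3′, and stop before the annotated gene start: Cxcl3 chr5:90785851-90786100, Cxcl1 chr5:90890995-90891240, Cxcl2 chr5:90903649-90903870, Ccl17 chr8:94810203-94810452 and Ccl22 chr8:94745434-94745589. Capitals mark matches to the motifs searched.
Cxcl3: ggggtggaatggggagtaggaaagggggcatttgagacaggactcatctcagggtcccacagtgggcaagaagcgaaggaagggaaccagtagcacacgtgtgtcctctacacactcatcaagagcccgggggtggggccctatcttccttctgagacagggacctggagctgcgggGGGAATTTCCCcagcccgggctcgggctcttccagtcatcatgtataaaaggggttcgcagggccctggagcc
Cxcl1: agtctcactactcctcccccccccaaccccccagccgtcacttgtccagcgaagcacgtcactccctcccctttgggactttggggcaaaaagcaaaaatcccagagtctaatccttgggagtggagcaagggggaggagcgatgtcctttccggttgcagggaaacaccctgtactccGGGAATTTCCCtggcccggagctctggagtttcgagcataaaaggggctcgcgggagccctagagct
Cxcl2: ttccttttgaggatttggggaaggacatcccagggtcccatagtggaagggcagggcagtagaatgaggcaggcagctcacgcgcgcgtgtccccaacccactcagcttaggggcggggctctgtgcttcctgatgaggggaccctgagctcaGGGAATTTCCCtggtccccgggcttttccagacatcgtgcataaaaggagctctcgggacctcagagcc
Ccl17: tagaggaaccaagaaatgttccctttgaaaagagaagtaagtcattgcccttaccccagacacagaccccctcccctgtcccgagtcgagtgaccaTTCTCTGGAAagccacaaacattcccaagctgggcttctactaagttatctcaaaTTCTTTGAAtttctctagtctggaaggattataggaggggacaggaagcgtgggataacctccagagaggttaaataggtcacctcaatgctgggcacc
Ccl22: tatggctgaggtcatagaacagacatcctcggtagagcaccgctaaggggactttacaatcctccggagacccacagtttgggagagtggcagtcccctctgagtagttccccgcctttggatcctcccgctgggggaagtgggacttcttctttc

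The letters GGGAATTTCCC stood upstream of Cxcl1, Cxcl2 and Cxcl3, starting 71, 97 and 73 bases before the RefSeq start. On both strands and over 250 bases, 14 of 32817 RefSeq promoters (0.0427%) held them, a search chosen after the shared letters were seen. They contain the general NF-kappaB consensus, which 3.90% of all promoters and 6 of the 33 chemokine ligand promoters held. These 33 belong to 27 genes, of which 6 held it. Several members had no promoter sequence and were not searched, among them Cxcl5, Ccl4, Ccl5 and Ccl11. STAT-type palindromes, TTC and GAA apart by a spacer of any bases, were searched with spacers of 4 and of 3 bases. The longer (5.85% of promoters) matched upstream of Ccl17 alone among these 27, and the shorter (7.01%) matched upstream of Ccl17 and Cxcl14. The AP-1 motif TGANTCA (6.75%) matched for Ccl27a, Ccl27b, Ccl9 and Cxcl10. None of these motifs matched within the 250 bases before Ccl22. A match is a description of the letters and not of a bound site.

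The family's summed level was 1221, 362 and 1731 CPM across the naive libraries (replicates 1 to 3, the order used throughout) and 2845, 2417, 2498 and 2428 CPM across the allografts (replicates 1 to 4). Every allograft library was above every naive library. Cxcl2 alone held 57.3% to 59.5% of the sum in the allografts, and 76.1%, 9.76% and 69.9% in naive replicates 1 to 3. More than 3 counts were found for 16, 30 and 16 members in the naive libraries and for 27 to 32 in the allografts.

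**Figure D1:**
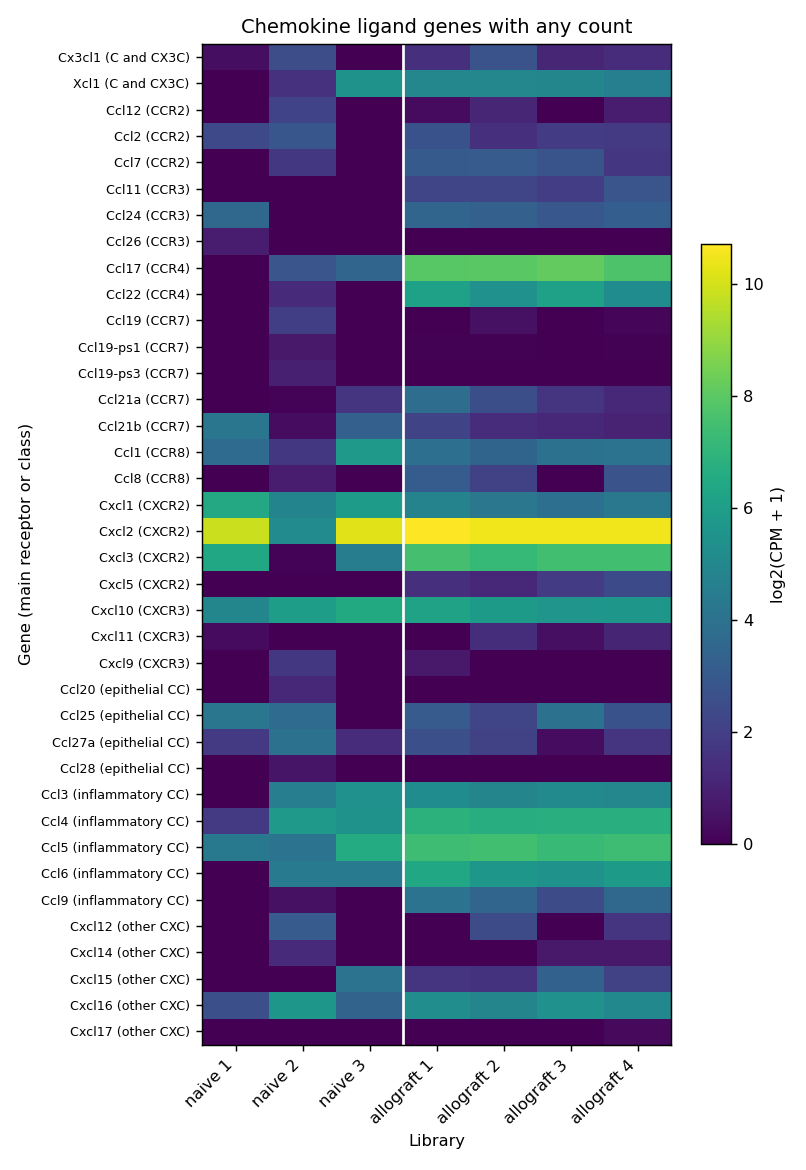
Level of each of the 38 chemokine ligand genes with any count (rows, with the main receptor or class) in the 7 libraries (columns) as log2(CPM + 1). Cxcl2 is the brightest row in all libraries but naive replicate 2, and Ccl17 is bright in the 4 allografts only among these libraries.

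On a scale per gene length (the deposited FPKM), Cxcl2 was the highest ligand of the allografts, at 625 ± 49.4 FPKM (SD, n = 4). Ccl17 followed at 414 ± 50.3 FPKM, and the lowest Cxcl2 value was above its highest. Ccl5, at 150 ± 8.51, and Ccl4, at 142 ± 7.98 FPKM, overlapped each other and lay below Ccl17. Xcl1, Cxcl3, Ccl3, Ccl6, Cxcl10 and Ccl22 followed, from 46.7 down to 20.03 FPKM, each overlapping the next in that order. In all, 10 members averaged at least 10 FPKM in the allografts and 23 at least 1 FPKM.

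**Figure D2:**
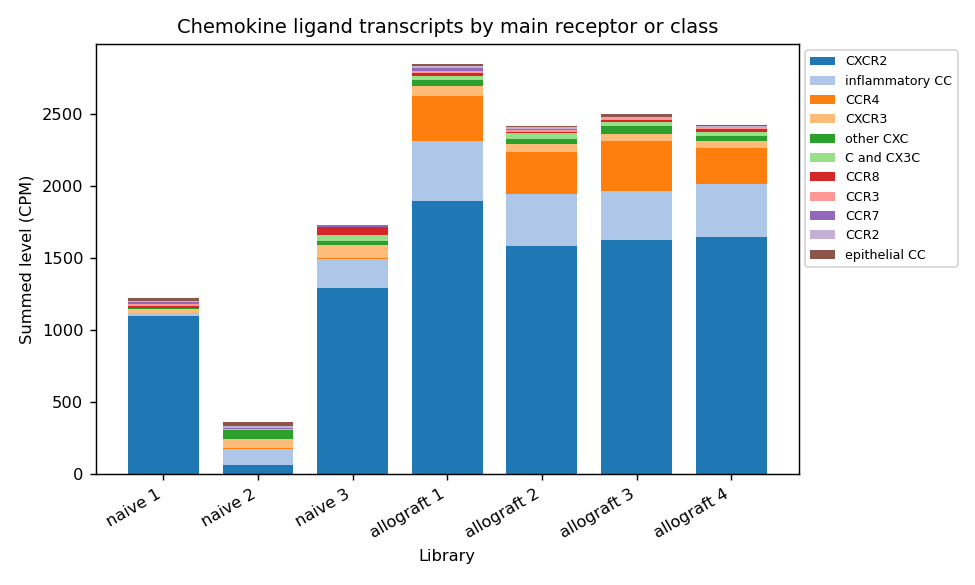
Summed CPM of the family in each library, stacked by main receptor or class of ligand. CXCR2 ligands make up most of every bar except that of naive replicate 2, and the CCR4 segment reaches 246 to 350 CPM in the allografts against at most 10.2 CPM in the naive libraries.

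Tested over all 17015 genes that passed the filter, no chemokine ligand reached an adjusted p of 0.05 (0 of 30) by edgeR's quasi-likelihood test with Benjamini-Hochberg adjustment, and 0.0353% of all genes did. At an unadjusted p under 0.05 there were 7 of 30 members (23.3%) against 10.3% of all genes: 6 with higher levels in allografts (Ccl11, Cxcl5, Ccl17, Ccl22, Ccl5 and Ccl9, against 6.41% of all genes) and Cxcl1 with lower levels (against 3.86%). Without naive replicate 2, 6 of 30 members passed the adjusted threshold (20%, against 3.1% of all genes), namely Ccl22, Ccl11, Ccl9, Ccl7 and Cxcl5 upward (3.0% of all genes) and Cxcl1 downward (0.0998% of all genes), and 12 had an unadjusted p under 0.05 (20.2% of all genes). Without naive replicate 1 Ccl17 alone among the members passed (0.568% of all genes), and without naive replicate 3 none did in edgeR (0 members, 0.0372% of all genes). DESeq2 on all libraries called 6 of 25 members with a p (24%, against 6.66% of all genes): Ccl11, Cxcl5, Ccl17, Ccl22, Ccl9 and Cxcl1. The CPM of every allograft exceeded that of every naive library for 10 of the 30 (12.5% of all genes) and lay below for 1 (2.15% of all genes). Without naive replicate 2 these were 13 (21.6% of all genes) and 2 (7.49% of all genes). The fitted fold change was positive for 19 of 30 members, against 49.4% of all genes. The median log2 fold change of the 30 was 0.90, also with the 2 genes that no naive library detected at their lower bound, against -0.01 over all genes. A gene that is high in the allografts alone can pass the filter through that group, so these counts are not an independent test of the family. In bulk libraries, more cells of a type and more RNA per cell cannot be told apart.

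**Figure D3:**
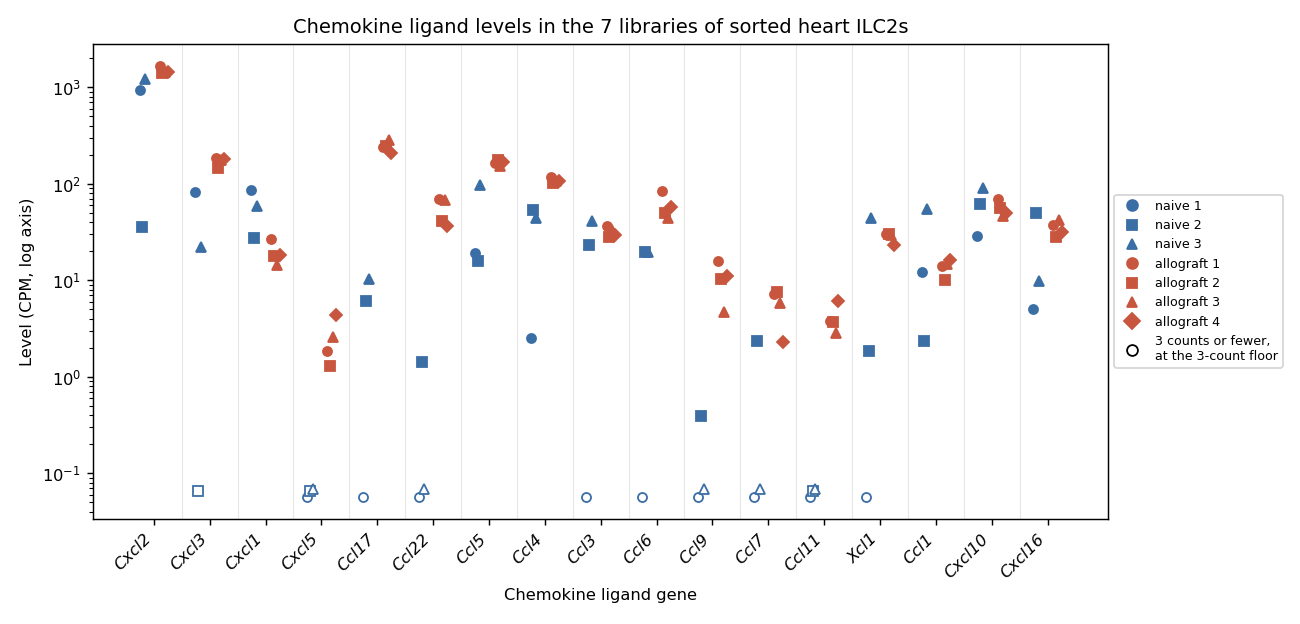
CPM (log axis) of 17 chemokine ligands in each library, blue for naive and red for allograft, with a symbol per replicate. Open symbols stand at the level of 3 counts for libraries with 3 counts or fewer. Every allograft value of Ccl17 and Ccl22 lies above every naive one, and every allograft value of Cxcl1 below.

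The CCR4 ligands Ccl17 and Ccl22 were much higher in every allograft than in any naive library. Ccl17, a dendritic cell and type 2 chemokine, had 0, 6.11 and 10.2 CPM in the naive and 242, 247, 282 and 210 CPM in the allograft libraries. Every allograft lay far above every naive library. The fitted log2 fold change was 5.21 (SE 1.66, edgeR adjusted p = 0.341). Without naive replicate 1, which had no Ccl17 count, Ccl17 passed (log2 fold change 4.64, SE 0.35, edgeR adjusted p = 0.0207, range over 13 alternatives 0.0166 to 1).

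Ccl22, the other CCR4 ligand, had 0, 1.43 and 0 CPM in the naive and 69.4, 41.4, 68.6 and 36.3 CPM in the allograft libraries. Only naive replicate 2, with 65 counts, held any Ccl22 among the naive libraries. Over all libraries the log2 fold change was 6.26 (SE 2.09, edgeR adjusted p = 0.341). Without that library Ccl22 was at least 860-fold higher than the 3-count floor and passed (edgeR adjusted p = 0.0161, range over 13 alternatives 0.0161 to 1). The ratio of Ccl17 to Ccl22 in CPM was 3.49 to 5.97 in the allografts and 4.28 in naive replicate 2.

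A list of 8 dendritic cell markers summed to 12.7 to 34.9 CPM in the naive and 82.9 to 109 CPM in the allograft libraries. Of its genes, 5 (Flt3, Zbtb46, Itgax, Clec9a and Clec10a) were higher in every allograft than in every naive library, and Itgax had no count in any naive library. None of the 8 was at 0 in an allograft library. The rest of the list overlapped and was highest in a naive library. Xcr1 had 30.9 CPM in naive replicate 3 against 13.5 to 25.4 CPM in the allografts. Cd209a had 18.2 CPM in naive replicate 2 against 3.40 to 10.9 CPM in the allografts. Fscn1 had 3.05 CPM in naive replicate 3 against 0.727 to 2.64 CPM in the allografts. The part of this list in the Ccl17 and Ccl22 values was not tested.

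Among the CXCR2 ligands, which attract neutrophils, Cxcl1 lay on the other side of its neighbours. Cxcl1 had 86.8, 27.1 and 59.1 CPM in the naive and 26.6, 17.9, 14.3 and 18.3 CPM in the allograft libraries. All 4 allografts were below all 3 naive libraries, by a narrow gap between allograft replicate 1 and naive replicate 2. Its log2 fold change was -1.70 (SE 0.40, edgeR adjusted p = 0.167). Without naive replicate 2 Cxcl1 fell by 1.96 on the log2 scale (SE 0.36, edgeR adjusted p = 0.0462, range over 13 alternatives 4.74e-05 to 1).

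Cxcl2, the most abundant ligand, had 929, 35.4 and 1210 CPM in the naive and 1680, 1417, 1432 and 1445 CPM in the allograft libraries. All allografts were higher, and naive replicates 1 and 3 lay nearer to them than naive replicate 2. Its log2 fold change of 1.00 (SE 0.87, edgeR adjusted p = 0.793) was 0.43 (SE 0.21) without naive replicate 2 and 1.62 when naive replicate 3 was left out instead. Cxcl3 had 82.5, 0.0659 and 22.2 CPM in the naive and 187, 145, 175 and 179 CPM in the allograft libraries. Every allograft was above every naive library, with a log2 fold change of 2.29 (SE 1.42, edgeR adjusted p = 0.698), against 1.68 (SE 0.52) without naive replicate 2 and 3.88 when naive replicate 1 was left out instead.

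The balance within this cluster differed between the groups, with no overlap. The CPM ratio of Cxcl2 to Cxcl1 was 10.7, 1.303 and 20.5 in the naive and 63.3, 79.3, 100.3 and 78.9 in the allograft libraries. That of Cxcl3 to Cxcl1 was 0.950, 0.0024 and 0.376 in the naive and 7.04 to 12.3 in the allograft libraries. Both ratios were chosen after the values were seen and carry no test, and a ratio does not show which gene moved.

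Cxcl5, a further CXCR2 ligand of the same chromosome, had no count in the naive libraries and 1.84, 1.296, 2.59 and 4.33 CPM in the allografts, from 42 to 126 counts. Its mean was at least 39.4-fold above the 3-count floor per naive library (edgeR adjusted p = 0.144, and 0.0471 without naive replicate 2, range over 13 alternatives 7.39e-07 to 1). Neutrophil markers were higher in the allografts, as Cxcl2, Cxcl3 and Cxcl5 were and Cxcl1 was not. The list of 6 summed to 1.13 to 12.7 CPM in the naive and 73.8 to 125 CPM in the allograft libraries, with S100a8, S100a9 and Retnlg higher in every allograft, while Csf3r and Cxcr2 were at 0 in every naive library. Csf3r was also at 0 in 2 of 4 allografts and Cxcr2 in 3 of 4. The last of the 6, Mmp8, was highest in naive replicate 1, at 1.13 CPM, and at 0.454, 0, 0.269 and 0 CPM in the allografts. Their part in the CXCR2 ligand values was not tested.

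Of the 5 inflammatory CC chemokines, which attract monocytes and effector lymphocytes, Ccl4, Ccl5, Ccl6 and Ccl9 were higher in every allograft than in every naive library, and Ccl3 overlapped. With the 7 libraries none of the 5 passed in edgeR, where Ccl5 and Ccl9 had an unadjusted p under 0.05, and DESeq2 called Ccl9 (DESeq2 adjusted p = 0.0303). Ccl5, made by activated lymphocytes, had 19.1, 15.96 and 96.6 CPM in the naive and 165, 177, 154 and 167 CPM in the allograft libraries. Naive replicate 3 lay closest to the allografts, which agreed within a standard deviation of 5.75% of their mean. The log2 fold change was 1.79 (SE 0.62, edgeR adjusted p = 0.342), and 2.97 (SE 0.28, edgeR adjusted p = 0.0616, range over 13 alternatives 0.0616 to 1) without naive replicate 3.

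Ccl3 and Ccl4 are neighbouring genes that lymphocytes and macrophages often make together. Ccl4 had 2.53, 53.9 and 44.2 CPM in the naive and 117, 102, 107 and 106 CPM in the allograft libraries, with a log2 fold change of 1.32 (SE 0.90, edgeR adjusted p = 0.730), which became 2.13 on leaving out naive replicate 2 and became 0.78 on leaving out replicate 1. Ccl3 had 0, 23.0 and 41.5 CPM in the naive and 36.5, 28.1, 33.6 and 29.7 CPM in the allograft libraries. Its naive values lay on both sides of the allografts, and its log2 fold change of 0.30 (SE 1.56) changed sign without naive replicate 1 (-0.27). The CPM ratio of Ccl4 to Ccl3 was 3.19 to 3.62 in the allografts, against 2.34 and 1.07 in naive replicates 2 and 3.

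Ccl6 and Ccl9 are rodent chemokines of myeloid cells. Ccl6 had 0, 19.5 and 19.5 CPM in the naive and 84.5, 50.02, 44.1 and 57.0 CPM in the allograft libraries, with a log2 fold change of 1.84 (SE 1.57, edgeR adjusted p = 0.790), which became 2.52 on leaving out naive replicate 2 and 1.27 on leaving out replicate 1. Ccl9 had 0, 0.396 and 0 CPM in the naive and 15.7, 10.4, 4.67 and 11.1 CPM in the allograft libraries, with a log2 fold change of 5.74 (SE 2.15, edgeR adjusted p = 0.389). The only naive Ccl9 reads were 18 in naive replicate 2, and without that library Ccl9 was at least 167-fold above the floor and passed (edgeR adjusted p = 0.0372, range over 13 alternatives 0.0303 to 1). The 9 macrophage and monocyte markers overlapped between the groups, at 2.49 to 470 CPM in the naive and 154 to 243 CPM in the allograft libraries, and none of the 9 separated them. In naive replicate 1, 8 of these markers were at 0, as were Ccl3, Ccl6 and Ccl9. Also at 0 in that library were 7 of 8 dendritic cell and 5 of 6 neutrophil markers. Ccl9 was at 0 in naive replicate 3 as well. That library had the highest macrophage and monocyte sum (470 CPM), of which Lyz2 alone held 432 CPM. There 5 of the 9 macrophage and monocyte markers were at 0. The 6 NK cell markers summed to 17.9 to 174 CPM in the naive and 232 to 324 CPM in the allograft libraries. Of these, Klrb1c, Klra8, Gzma and Prf1 were higher in every allograft than in every naive library. Ncr1 overlapped, with 28.8 CPM in naive replicate 3 against 11.4 to 26.8 CPM in the allografts. Eomes also overlapped, at 0.641 CPM in naive replicate 1 and 0 in allograft replicate 3. The 8 T cell markers summed to 30.4 to 1085 CPM in the naive and 1064 to 1260 CPM in the allograft libraries. Cd3g, Trac and Trbc2 (3 of 8) separated the groups, and Cd3e, Cd8a and Trbc1 overlapped. Cd3d and Cd4 were highest in naive replicate 3, at 32.5 and 11.6 CPM. In the allografts Cd3d had 3.57 to 8.64 CPM and Cd4 at most 0.721 CPM. The part of these lists in the inflammatory CC chemokine values was not tested.

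Eosinophil and monocyte chemokines were low, and their detection differed by library. The eotaxin Ccl11, a CCR3 ligand, had no naive count and 3.77, 3.73, 2.84 and 6.12 CPM in the allografts, from 116 to 178 counts. Its mean was at least 64.5-fold above the floor per naive library (edgeR adjusted p = 0.144, and 0.0413 without naive replicate 2, range over 13 alternatives 7.88e-10 to 1). The other mouse eotaxin, Ccl24, reached 11.4 CPM in naive replicate 1, 0 in the other naive libraries and 6.49 to 10.2 CPM in the allografts, so the groups overlapped.

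The CCR2 ligand Ccl7, which mobilises monocytes, had 0, 2.33 and 0 CPM in the naive and 7.25, 7.53, 5.85 and 2.27 CPM in the allograft libraries. Allograft replicate 4 lay just below naive replicate 2. Without naive replicate 2 Ccl7 was at least 91.3-fold above the floor and passed (edgeR adjusted p = 0.0433, range over 13 alternatives 0.0433 to 1); with it the log2 fold change was 2.30 (SE 2.21, edgeR adjusted p = 0.822). Ccl2, the main CCR2 ligand, had 4.13, 6.22 and 0 CPM in the naive and 1.76 to 5.59 CPM in the allograft libraries and overlapped. Ccl12 stayed at or under 3.43 CPM in every library and was highest in naive replicate 2.

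The CCR8 ligand Ccl1 had 12.3, 2.37 and 55.1 CPM in the naive and 14.0, 10.03, 14.8 and 16.1 CPM in the allograft libraries. The naive values spanned the allografts, and the log2 fold change of -0.83 (SE 0.87) was 0.81 without naive replicate 3. Ccl8, the second CCR8 ligand of the mouse, had 7.79, 3.24, 0 and 5.63 CPM in the allografts and 35 counts in naive replicate 2 as its only naive signal. The receptor gene Ccr8 had 1280, 21.2 and 2754 CPM in the naive and 1279 to 1649 CPM in the allograft libraries.

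Xcl1, the C chemokine that binds XCR1 on cross-presenting dendritic cells, had 0, 1.87 and 43.7 CPM in the naive and 29.8, 29.9, 29.4 and 23.5 CPM in the allograft libraries. Naive replicate 3 was above every allograft and the others were far below, so the log2 fold change of 0.80 (SE 1.71, edgeR adjusted p = 0.943) rested on no common naive level. Leaving out naive replicate 3 gave 4.37, and leaving out replicate 1 or 2 gave 0.22 or 0.29. Xcl1 shares exons on the opposite strand with Gm20743. Cx3cl1, the membrane-bound ligand of CX3CR1, was at 1.25 to 5.68 CPM in the allografts and at 0.320, 4.77 and 0 CPM in the naive libraries.

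Among the CXCR3 ligands, which interferon gamma induces, Cxcl10 was the only one above 1.64 CPM outside naive replicate 2. Cxcl10 had 28.96, 62.0 and 90.9 CPM in the naive and 70.3, 56.7, 46.9 and 49.9 CPM in the allograft libraries. Naive replicate 1 was the lowest and naive replicate 3 the highest of all libraries, and the log2 fold change was -0.37 (SE 0.45, edgeR adjusted p = 0.873). Cxcl9 held 105 counts in naive replicate 2, 29 in allograft replicate 1 and 0 in the other libraries. Cxcl11, annotated as a polymorphic pseudogene in GENCODE M21, was at or under 1.64 CPM in every library. Cxcl10 and Cxcl11 share exons with genes on the opposite strand (Art3 and Gm2673), and the use of strand in the counting was not given in the sources used here.

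Cxcl16, the membrane-bound ligand of CXCR6, depended on a single library. It had 5.09, 50.1 and 9.73 CPM in the naive and 37.4, 28.4, 42.0 and 31.5 CPM in the allograft libraries. The allografts were all above naive replicates 1 and 3 and all below naive replicate 2. The log2 fold change was 0.21 (SE 0.86, edgeR adjusted p = 0.976), -0.13 with DESeq2 size factors, and 2.18 (SE 0.47, edgeR adjusted p = 0.0635, range over 12 alternatives 0.0635 to 1) without naive replicate 2. Cxcl16 shares exons on the opposite strand with Zmynd15.

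**Figure D4:**
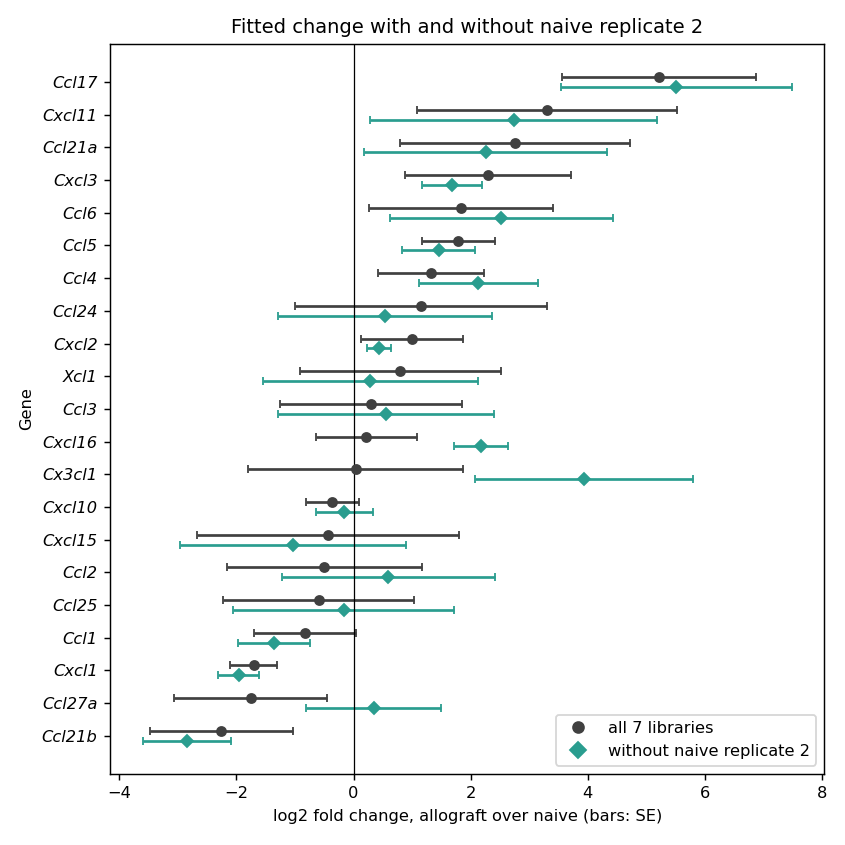
Fitted log2 fold change (allograft over naive, bars are the SE) of the 21 tested members with more than 3 counts in naive replicate 1 or 3, with all 7 libraries (grey circles) and without naive replicate 2 (green diamonds). Ccl17 is highest in both fits, Cxcl1 is negative with a small SE in both, and Cxcl16 and Cx3cl1 shift upward without that library.

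The remaining tested members were at or below 17.7 CPM in every library. The CCR7 ligands Ccl21a and Ccl21b are near-identical copies, so their reads may be split between them. Ccl21a had 0, 0.0879 and 2.13 CPM in the naive and 1.34 to 13.02 CPM in the allograft libraries, while Ccl21b had 17.3, 0.264 and 8.86 CPM in the naive and 1.03 to 3.54 CPM in the allograft libraries. The gut and skin chemokines Ccl25 (at most 17.7 CPM) and Ccl27a (at most 15.2 CPM) share exons on the opposite strand with Elavl1 and Il11ra1 and overlapped between the groups. Cxcl15, a lung chemokine, reached 15.9 CPM in naive replicate 3 and 1.94 to 9.08 CPM in the allografts. The stromal chemokine Cxcl12 was highest in naive replicate 2 (7.39 CPM), and was 0 in naive replicates 1 and 3 and in 2 of 4 allografts. Cxcl14 stayed at or under 1.49 CPM.

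The 8 genes with counts below the filter were mostly found in naive replicate 2. Ccl20 (63 counts), Ccl28 (24 counts) and the pseudogene Ccl19-ps3 (43 counts) were seen in that library alone. Ccl19 held 136 counts there and at most 13 elsewhere, and the pseudogene Ccl19-ps1 held 30 there and at most 2 elsewhere. Ccl26 held 44 counts in naive replicate 1 alone and Cxcl17 held 6 in allograft replicate 4 alone. Cxcl9, described above, is the eighth.

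In edgeR on all 7 libraries the receptors gave no call either. Of 24 chemokine receptor, decoy receptor and platelet ligand genes listed for comparison, 19 were tested and 0 passed with the 7 libraries in edgeR, where 0.0353% of all genes did; 3 (Ccr6, Ccr7 and Ccr10) had an unadjusted p under 0.05, against 10.3% of all genes. DESeq2 called 2 of 15 (Ccr6 and Ccr7), against 6.66% of all genes. Without naive replicate 1, Ccr3, Ccr4 and Ccr7 passed (3 of 20, against 0.568% of all genes). Ccr4, the receptor of Ccl17 and Ccl22, had 39.7, 0.418 and 0.734 CPM in the naive and 30.01, 39.6, 40.4 and 39.7 CPM in the allograft libraries, so naive replicate 1 matched the allografts in Ccr4 while it held no Ccl17 or Ccl22. Ccr7, the receptor of Ccl19 and Ccl21, had 5.37, 13.2 and 29.2 CPM in the naive and 198 to 269 CPM in the allograft libraries.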

How the data were processed

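RNA of sorted heart ILC2s was analysed in 7 libraries, grouped by their titles. The authors deposited whole-number counts per gene and FPKM for the same genes. Per the submitters' processing notes, STAR 2.5.3a, StringTie 1.3.1c, FastQC 0.11.5, DESeq2 1.16.1 and the build mm10 were used. The annotation, the counting tool and the use of strand were not given in the sources used here. CPM was computed from the deposited total count. The test was edgeR 4.0.16 (R 4.3.3), a quasi-likelihood fit on all 7 libraries with TMM, filterByExpr and Benjamini-Hochberg adjustment over 17015 genes. It was also run on simulated counts with the same dispersion for every gene and no aberrant library. That run does not show how the test behaves with these naive libraries. The SE follows from the F value. DESeq2 1.42.0, size factors, filters, mitochondrial genes, each library left out and a replicate block were alternatives. Bounds use 3 counts per library. The members and lists were chosen with earlier results of these data known. Every tested member was named, with values per library for those past the threshold in the fit of all libraries or in one without a naive library, or averaging 20 CPM in a group. Motifs were searched on both strands of 250 bases before RefSeq starts. No protein sequences were used here. An item of the list of receptors is not reported here.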

Additional observations from a re-analysis of the deposited data

Results flagged for a closer look

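In 32 sets of 4 allograft values, a single library far from the other 3 was looked for (Dixon's gap over range), and 3 were found where chance gives about 1.6. Xcl1 had 23.5 CPM in allograft replicate 4 against 29.4 to 29.9 CPM in the other allografts. Cx3cl1 had 5.68 CPM in allograft replicate 2 against 1.25 to 1.73 CPM. Cxcl2 had 1680 CPM in allograft replicate 1 against 1417 to 1445 CPM.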

How the results depend on the processing

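Direction was kept by 20 of the 30 tested members in all 13 alternatives that gave a value, among them the 7 with an unadjusted p under 0.05, and by 10 not. Leaving out 1 library at a time, the genes past the adjusted threshold ran from 0 to 560. The members past it ran from 0 to 6, and the receptor list from 0 to 3. Members at an unadjusted p under 0.05 ran from 6 to 12 (5.31% to 20.2% of all genes). Members wholly higher in allografts ran from 10 (without allograft replicate 2, 14.2% of all genes) to 14 (without naive replicate 3, 22.5%). The share of all genes wholly higher was largest without naive replicate 1 (28.5%, with 11 members). Members wholly lower ran from 1 to 2 (2.46% to 7.49% of all genes). The members' median log2 fold change ran from 0.0095 to 2.15. The highest counts and median came without naive replicate 2, except for the receptors (naive replicate 1) and the wholly higher members (naive replicate 3). The lowest median came without naive replicate 1. DESeq2 called 1012 genes, 6 members and 2 receptors. Its size factors moved the median of all genes from -0.01 to -0.20. The log2 fold change of a member changed sign within these leave-one-out ranges: Cxcl14 -1.70 to 6.75, Cx3cl1 -0.71 to 3.94, Ccl1 -1.36 to 0.81, Cxcl16 -0.26 to 2.18, Ccl3 -0.27 to 0.92, Cxcl15 -1.18 to 10.3, Ccl12 -2.30 to 7.49, Ccl2 -1.06 to 0.59, Ccl27a -2.32 to 0.34 and Cxcl12 -1.74 to 9.01. With DESeq2 size factors Cx3cl1 was -0.34 and Cxcl16 -0.13. With a replicate block 0 genes passed, the members' median was 2.38, and Cxcl15 was 6.34, Ccl12 0.93 and Ccl2 0.93. Nothing in the titles says that equal numbers share animals or days. The deviations from the group means correlated at 0.0169, -0.0196 and 0.0360 in same-numbered libraries. With so few libraries, and naive replicate 2 apart from the rest, this can neither show nor exclude a shared day. The cause of these shifts was not tested. Depth limits members under about 0.1 CPM. Zeros also stood beside far higher naive levels, as for Xcl1 with 0, 85 and 1905 counts in naive replicates 1 to 3. The bounds from 3 counts do not cover such differences between libraries.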
